A study of Homo sapiens with 6 samples.

Results

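The enzymes that carry glucose to pyruvate were taken by symbol from both deposited tables, with 1 gene for each of the 10 steps: HK2, GPI, PFKP, ALDOA, TPI1, GAPDH, PGK1, PGAM1, ENO1 and PKM. Of these 10 genes, 9 had a value in the table of translational efficiency (8121 genes) and the same 9 in the table of ribosome occupancy (9570 transcripts). GPI, the isomerase of the second step, was not analysed here. All samples were HEK293 cells, an established human embryonic kidney line, treated with a control siRNA and grown in a single condition. Per the study's methods, cells for ribosome profiling were treated with cycloheximide before lysis, and its part in the ribosome positions was not tested. There were 3 libraries of ribosome protected fragments (RPFs) and 3 of total RNA, numbered 1 to 3, so every comparison is between genes or between positions of an mRNA, not between treatments. The labels do not say whether the replicates were separate cultures, so p-values measure only the spread between these 3 samples.

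Glycolysis splits glucose into pyruvate in the cytosol, first spending ATP to phosphorylate the sugar and later regaining it in the steps of phosphoglycerate kinase and pyruvate kinase. Its enzymes are among the most abundant proteins of proliferating cell lines. The steps of hexokinase, phosphofructokinase and pyruvate kinase are in effect irreversible and are known points of control, whereas most of the enzymes between them work near equilibrium. In ribosome profiling, RNase digestion leaves the piece of mRNA inside each ribosome, and the sequenced RPFs show where on the mRNA the ribosomes were and how many they were.

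Translational efficiency (TE) is the ratio of RPFs to total RNA of a gene, which the authors deposited for each replicate. Its median over all genes was 0.382, 0.380 and 0.388 in replicates 1, 2 and 3. Ribosome occupancy is the in-frame RPF signal of each codon after the authors' normalization to library size and mRNA level (TPM), with the replicates combined, so an occupancy value of a single mRNA has no replicate error. In each transcript the values are sums of 3 smallest amounts, that which 1 read adds in each replicate, and from these amounts the reads per codon and the mRNA abundance per unit of length were estimated. The estimates gave 62583777 in-frame CDS reads in all and a median of 1793 per transcript. The HEK293 markers VIM, NEFL, NEFM and INA were in both tables, at 22.2, 19.2, 17.5 and 0.0925 times the mRNA abundance of the median transcript, so INA was scarce. PTPRC, CD3E, ALB, APOA1 and PECAM1, which mark other cell types, were in neither, and the fibroblast gene COL1A1 was present at 0.0434 times the median.

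TE was higher than that of the median gene for 8 of the 9 enzymes and lower for ALDOA. Over all genes 44.7% were called higher and 44.6% lower by the same test (limma on log2(TE + 0.01) with Benjamini-Hochberg adjustment over all genes, FDR 0.05), so that nearly every gene is called in some direction and the size of the difference says more than the call. The median difference of the 9 enzymes was 0.67 on the log2 scale. The values ranged over 55.6-fold, from ALDOA to PGAM1.

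In the preparatory steps, HK2, the hexokinase that traps glucose as its phosphate, had TE values of 0.807, 0.819 and 0.946 in replicates 1, 2 and 3 (mean 0.858 ± 0.0769, SD, n = 3). This lies 1.14 ± 0.07 (SE) above the median gene on the log2 scale (limma, adjusted p = 3.92e-05). PFKP, the platelet type of phosphofructokinase, had values of 0.599, 0.613 and 0.633, a difference of 0.67 ± 0.05 (limma, adjusted p = 9.84e-05). Both HK2 and PFKP therefore lay above the median in each replicate.

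ALDOA, which splits fructose bisphosphate into a pair of triose phosphates, stood on the other side. Its TE was 0.204, 0.234 and 0.209, a log2 difference of -0.80 ± 0.06 (limma, adjusted p = 0.000103), and no replicate reached the median. TPI1, the isomerase that interconverts the triose phosphates, was closest to the median gene, with 0.445, 0.498 and 0.450 and a log2 difference of 0.27 ± 0.06 (limma, adjusted p = 0.00724).

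In the later steps, from GAPDH to PKM, the spread between enzymes was widest. GAPDH, which oxidizes the triose phosphate, had TE values of 0.573, 0.638 and 0.600 (log2 difference 0.64 ± 0.06; limma, adjusted p = 0.000181). PGK1, the first ATP-forming enzyme, had 4.16, 4.34 and 3.85, which by the log2 difference of the fit is 10.5 times the median (log2 difference 3.39 ± 0.06; limma, adjusted p = 1.36e-06). PGAM1, the mutase of the next step, had 11.6, 12.7 and 11.7, or by the same measure 30.5 times the median (log2 difference 4.93 ± 0.05; limma, adjusted p = 8.99e-07). PGAM1 stood at the 99.2nd and PGK1 at the 96.9th percentile of all genes.

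ENO1, the enolase that forms phosphoenolpyruvate, had TE values of 0.717, 0.696 and 0.666 (log2 difference 0.84 ± 0.05; limma, adjusted p = 4.66e-05). PKM, the pyruvate kinase of the last step, had 0.552, 0.473 and 0.476 (log2 difference 0.37 ± 0.07; limma, adjusted p = 0.0035). In falling order of mean TE the enzymes were PGAM1, PGK1, HK2, ENO1, PFKP, GAPDH, PKM, TPI1 and ALDOA. The replicates of PFKP and GAPDH overlapped, as did those of PKM and TPI1. All other neighbours in this order were separated in all 3 replicates, although an exact two-sided permutation test of 3 against 3 values cannot go below p = 0.1.

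**Figure D1:**
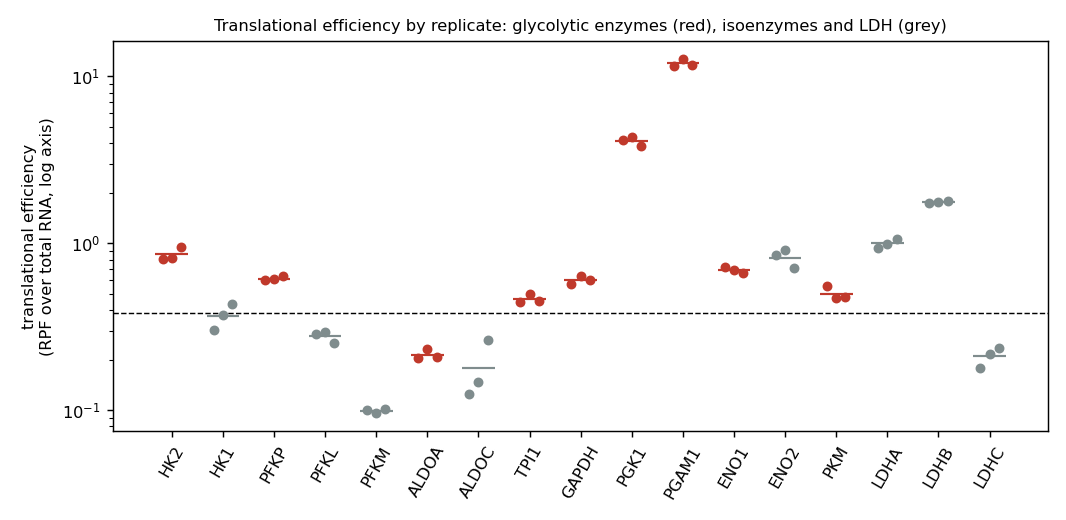
TE of each replicate (points, log axis) and the mean of the 3 replicates (bars) for the 9 enzymes in red and their isoenzymes and lactate dehydrogenases in grey, in pathway order. The dashed line is the median TE of all values, 0.383. The PGK1 and PGAM1 points sit apart above all others, and the ALDOA points lie below the line.

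The mRNAs of these enzymes differed far more in abundance than in ribosome occupancy per codon. On the scale per unit of length relative to the median transcript, GAPDH mRNA was at 139, ENO1 at 103, ALDOA at 62.3, TPI1 at 61.7, PKM at 28.7, PGAM1 at 19.7, PGK1 at 16.7, PFKP at 4.42 and HK2 at 0.624. GAPDH thus ranked 12th and ENO1 26th of all transcripts in mRNA abundance, whereas HK2 ranked 6039th. The highest and the lowest enzyme differed 223-fold in mRNA abundance and 114-fold in estimated reads per codon, but only 3.55-fold in occupancy per codon, the quantity that is divided by the mRNA level. TE, which is also taken relative to RNA, differed 55.6-fold over the same 9 enzymes. The 9 enzymes together held 996112 in-frame CDS reads, or 1.59% of all.

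Occupancy averaged over the codons of the CDS was 0.120 for HK2, 0.0360 for PFKP, 0.0596 for ALDOA, 0.0448 for TPI1, 0.0466 for GAPDH, 0.109 for PGK1, 0.128 for PGAM1, 0.0824 for ENO1 and 0.0841 for PKM. The median transcript had 0.0450, so 7 of the 9 lay above it, and the TPI1 value differed from it by less than 0.01 on the log2 scale. HK2, the enzyme with the scarcest mRNA of the 9, had the second highest occupancy, at the 87.7th percentile, after PGAM1 at the 89.0th. The PGAM1 mean includes codon 224, which alone held 22.0% of its CDS sum. ENO1 had the most reads per codon, 775, followed by GAPDH with 610 and ALDOA with 345, whereas PFKP had 14.5 and HK2 had 6.81. Positions in the last 2 mRNAs therefore rest on far fewer reads than in the other 7.

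**Figure D2:**
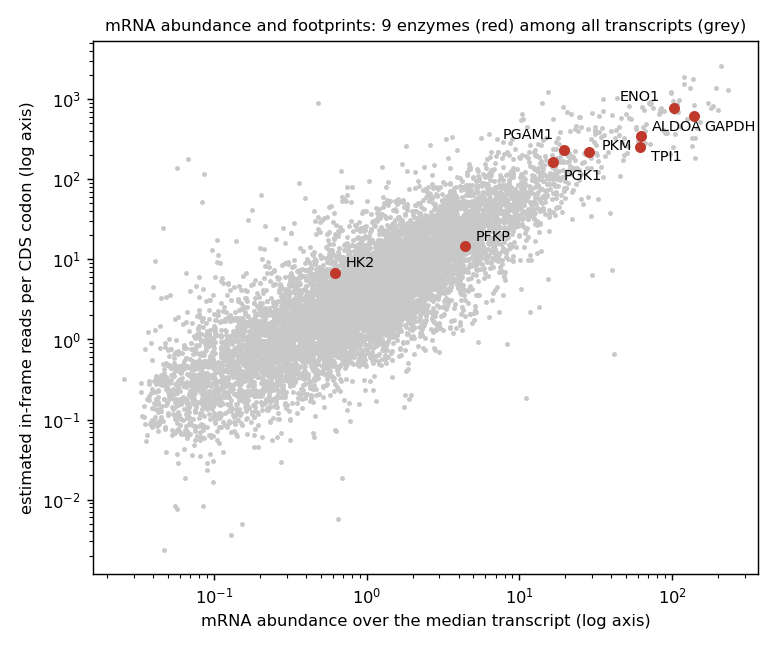
Estimated in-frame reads per CDS codon against mRNA abundance relative to the median transcript, both on log axes, for all transcripts with a recovered read step and reads above 0 (grey) and the 9 enzymes (red). HK2 sits at an mRNA abundance of 0.624 and GAPDH at 139, and the enzymes lie within the band of the other transcripts.

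The TE table and the occupancy table did not place every enzyme alike. Relative to the median, the log2 TE of PGAM1 exceeded its log2 occupancy by 3.42, at the 99.5th percentile of all genes in both tables, and that of PGK1 exceeded it by 2.11, at the 97.3rd percentile. For ALDOA the difference was -1.21, at the 14.6th percentile. For the remaining 6 enzymes it lay between -0.53 (PKM) and 0.99 (PFKP). PGK1 and PGAM1 were therefore close to HK2 in occupancy, at 0.109, 0.128 and 0.120, and 4.80-fold or more above it in TE.

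Several of these genes have copies elsewhere in the genome, and the share of the CDS that occurs elsewhere was measured in windows of 30 nt (30-mers, GRCh37). Every 30-mer of the PGAM1 CDS occurred elsewhere in the genome (100%). The share was 67.3% for TPI1, 66.3% for GAPDH, 35.6% for HK2, 30.5% for PGK1, 18.8% for ENO1, 18.4% for PKM, 8.82% for ALDOA and 0.258% for PFKP. Over all genes in both tables, the median of log2 TE minus log2 occupancy was -0.17 for the 5249 genes with under 5% of the CDS elsewhere, -0.03 for the 1087 genes with 5 to 50%, 0.33 for the 269 genes with 50 to 90% and 1.92 for the 45 genes with 90% or more. The median log2 TE of these genes, relative to the median of all values, was -0.13, 0.53, 1.40 and 3.57 in the same order. PFKP, HK2, PGK1, ENO1 and PGAM1 lay above the median log2 TE of genes with a like share of copied CDS, and TPI1, GAPDH, PKM and ALDOA lay below it, a comparison for which no test was made. The part of copied sequence in the TE of PGAM1, PGK1 and the other enzymes was not tested. The ALDOA gene lies on the same strand as an overlapping gene model whose transcripts hold 100% of its CDS 30-mers, and the part of this overlap in its low TE was not tested either. PFKP also has an overlapping gene model on its strand, and 4.21% of its CDS 30-mers occurred in transcripts of other genes.

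**Figure D3:**
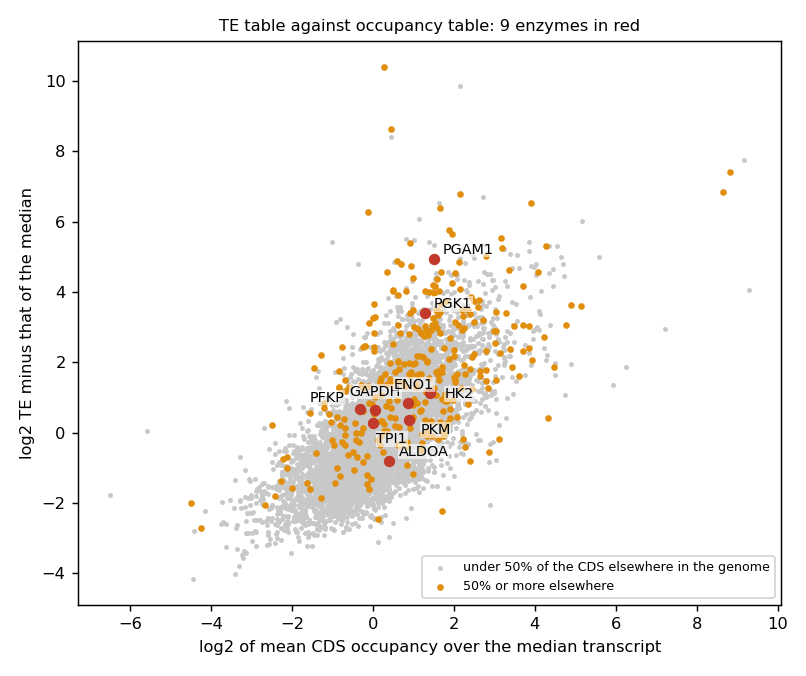
Log2 TE of each gene minus that of the median against the log2 of its mean CDS occupancy over that of the median transcript. Grey points have under 50% and orange points 50% or more of their CDS 30-mers elsewhere in the genome, and the 9 enzymes are red. PGAM1 and PGK1 lie above the bulk of genes of like occupancy, and ALDOA lies near its lower side.

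Ribosomes were spread unevenly along every one of the 9 CDSs. Between 4.31% (PGAM1) and 8.40% (TPI1) of the codons held 50% of the signal, against a median of 8.53% for the 1150 transcripts of like length and depth. PGAM1 was the most uneven, since codon 224 (TTG) alone had an occupancy of 7.19, or 22.0% of the CDS sum and 12955 estimated reads (95% exact binomial interval 21.7% to 22.4%, counting error only). In GAPDH codon 171 (GTG) held 7.93%, in PKM codon 52 (ATC) 5.97% and in TPI1 codon 29 (CTG) 5.96%. These 4 of 9 exceeded 5% of the CDS sum in a single codon, as did 24.9% of the transcripts of like length and depth, whose median was 3.70%.

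The remaining highest codons were less prominent. PGK1 had 4.55% at codon 9 (CTG), ALDOA 3.77% at codon 51 (AAC), PFKP 2.40% at codon 409 (ACC), ENO1 2.33% at codon 277 (GCT) and HK2 2.11% at codon 142 (CAA). The 30 nt around the highest codon are shown for the 5 mRNAs in which it held over 4% of the signal, starting 13 nt before the codon, with the codon itself in capitals. Positions are in GRCh37, and where a window crosses an intron the coordinates span it.
PGAM1 codon 224, exon 4 of 4, chr10:99192173-99192202, plus strand: attggacaagaacTTGaagcctatcaagcc
GAPDH codon 171, exons 7 to 8 of 9, chr12:6646529-6646751, plus strand: caactttggtatcGTGgaaggactcatgac
PKM codon 52, exons 2 to 3 of 11, chr15:72509841-72511313, minus strand: ccggaacactggcATCatctgtaccattgg
TPI1 codon 29, exon 1 of 7, chr12:6976802-6976831, plus strand: gctcatcggcactCTGaacgcggccaaggt
PGK1 codon 9, exon 1 of 11, chrX:77359849-77359878, plus strand: taacaagctgacgCTGgacaagctggacgt
The first 28 nt of the PGAM1 and GAPDH windows also occurred elsewhere in the genome, and those of PKM, TPI1 and PGK1 did not.

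**Figure D4:**
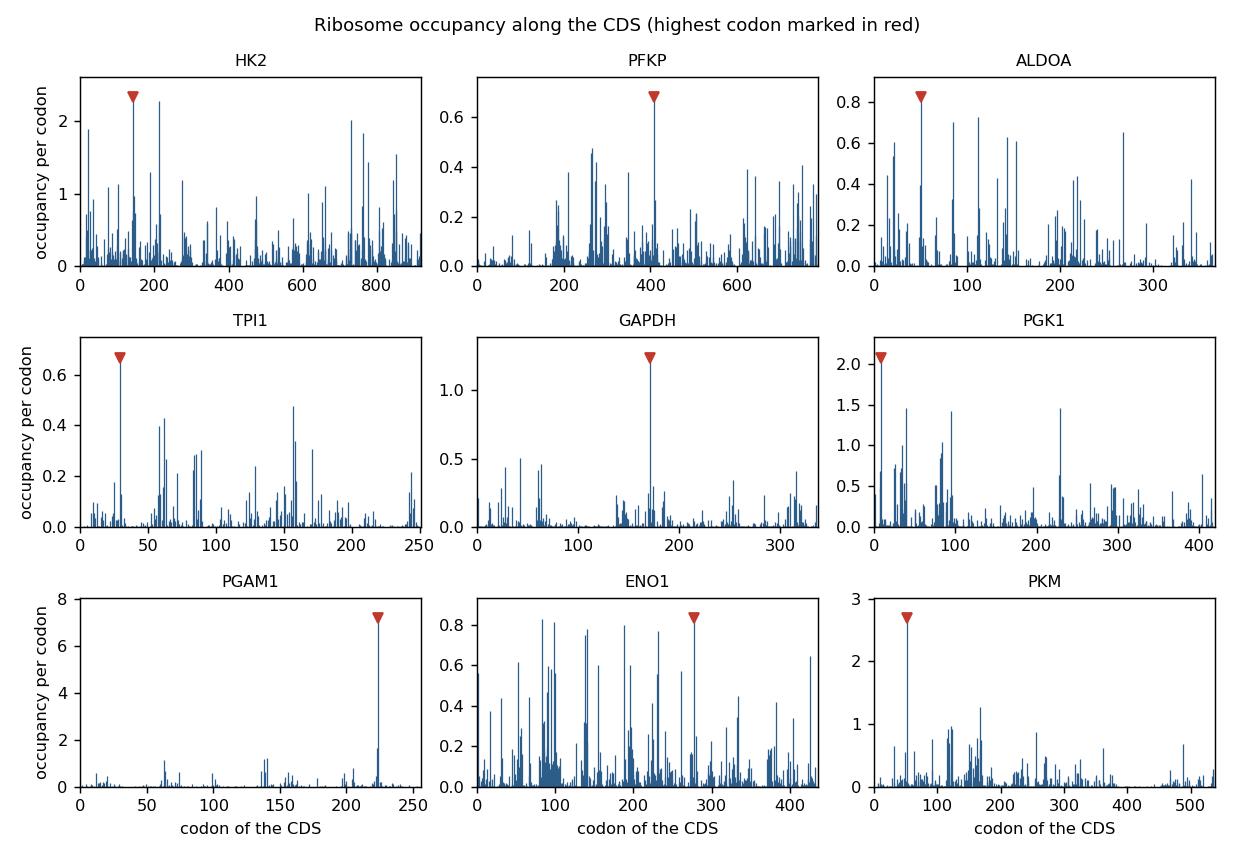
Occupancy of each codon along the CDS of the 9 enzymes (replicates combined, linear axes that differ between panels), with a red mark at the highest codon. A single codon rises above all others in PGAM1, GAPDH and PKM, whereas HK2, ALDOA and ENO1 have several peaks of like height.

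Ribosomes were denser at the beginning than at the end of 7 of the 9 CDSs, by the mean occupancy of the first 75 against the last 75 codons. The ratio was 3.58 for PGK1 (0.191 against 0.0533), 2.66 for ALDOA, 2.22 for TPI1, 1.94 for PKM, 1.48 for GAPDH, 1.25 for ENO1 and 1.09 for HK2. It was 0.534 for PGAM1, whose last window holds codon 224, and 0.146 for PFKP. With windows of 50 codons the log2 ratio was 1.06 instead of 0.13 in HK2, 0.05 instead of 0.95 in PKM and -1.72 instead of -0.91 in PGAM1, and by medians over the window it was -0.11 instead of 0.32 in ENO1. Of all transcripts with 150 or more codons 49.7% had a ratio above 1, and of those of like length and depth 44.7%.

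PFKP carried fewer ribosomes per codon on its first 4 exons than on the others as a whole. Codons 1 to 152 held 583 reads, or 3.84 per codon, with 69 codons at 0, whereas the 633 codons of exons 5 to 22 held 10819 reads, or 17.1 per codon. The mean occupancy of the first 4 exons was 22.2% of that of the others. The lowest was exon 2, at 0.134 times the CDS mean, and the highest was exon 8, at 2.53 times. The boundary was not sharp, since exon 3 was at 0.550 times the CDS mean, above exon 7 at 0.275 and exon 16 at 0.447. This grouping of exons was chosen after the values were seen.

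In PKM a single exon was almost empty. PKM mRNA holds either of 2 mutually exclusive exons of equal length, one of which gives the M1 form of the enzyme that is typical of muscle and the other the M2 form of proliferating cells. The transcript matched to the deposited CDS holds exon 9 of the M1 form (chr15:72495363-72495529, minus strand, GRCh37), and not the exon of the M2 form (chr15:72494795-72494961). Because both exons have 167 nt, the length alone does not tell which of them the authors' transcript holds. Codons 386 to 441, which lie in this exon, held 353 reads, or 6.30 per codon, against 247 per codon in the other 481 codons. Their mean occupancy was 0.00241, which is 2.57% of the 0.0936 of the rest of the CDS, while exon 8 before it had 141 and exon 10 after it 114 reads per codon. No other exon of 15 codons or more in the 9 enzymes was as low against its CDS mean. The exon sequences differ at 62 of 167 bases, and their first 30 bases are shown with the differing bases in capitals.
PKM exon 9, M1 form, chr15:72495500-72495529, minus strand: atAgcTcgtgaggcTgaggcAgccatGtTc
PKM exon of the M2 form, chr15:72494932-72494961, minus strand: atTgcCcgtgaggcAgaggcTgccatCtAc
Of the 353 reads, 339 lay at 53 codons whose 28-nt window has over 3 mismatches to the other exon. This exon was singled out after its values were seen.

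The exon pattern of the other enzymes was milder. Among exons with 15 or more codons the ratio of the highest to the lowest mean occupancy was 10.0 in PGK1, 7.19 in GAPDH, 5.11 in ENO1 and between 3.02 and 3.64 in ALDOA, PGAM1, TPI1 and HK2. In PGK1 it was exon 2 that stood highest, at 3.79 times the CDS mean.

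At the start codon the enzymes fell into unlike sets. The first codon had 6.83 times the CDS mean in ENO1 (5291 reads), 4.57 times in GAPDH (2788 reads) and 3.71 times in PGK1 (617 reads). It had 0.842 times in PFKP, 0.518 times in PGAM1 and 0.394 times in ALDOA, and the median of transcripts of like length and depth was 0.463. TPI1 had 2 reads at its first codon, and HK2 and PKM had 0, a count that allows up to 3 reads. The 30 bases around the start codons of ENO1 and GAPDH, which had the most reads, and of TPI1 are shown with the ATG in capitals.
ENO1 start, exons 1 to 2, chr1:8934950-8938641, minus strand: tagaagttcaccATGtctattctcaagatc
GAPDH start, exon 2, chr12:6643987-6644016, plus strand: cgctcagacaccATGgggaaggtgaaggtc
TPI1 start, exon 1, chr12:6976719-6976748, plus strand: ggctccagcgccATGgcgccctccaggaag
The deposited PKM CDS, of 537 codons, begins at an ATG that lies 5 codons before a second ATG in the same frame. The second ATG is the annotated start of the matched transcript, so the 0 reads at codon 1 of PKM concern the deposited CDS. The stretch that holds both ATGs is shown with each of them in capitals.
PKM codons 1 to 10, exons 1 to 2, chr15:72511424-72521889, minus strand: ATGacctcagcagccATGtcgaagccccat
Codons 1 to 5 held 0 reads, codon 6, which is the second ATG, held 177 reads (0.798 times the CDS mean), and the next 20 codons held 1078 reads.

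The in-frame signal of the 5′UTR was above that of the median transcript of like length and depth in 5 of the 9 mRNAs and below it in 4. Its sum was 2.22% of the CDS sum in HK2, 1.26% in ALDOA, 0.971% in PGK1 and 0.482% in ENO1, against a median of 0.150% for those transcripts. It was 0.202% in PFKP and at most 0.0524% in PGAM1, GAPDH, PKM and TPI1. In ALDOA the highest 5′UTR codon lay 11 codons before the ATG, in ENO1 21 codons and in HK2 89 codons before it. The HK2 value rests on 139 reads over a 5′UTR of 638 codons, whereas that of ALDOA rests on 1583 reads and that of ENO1 on 1627.

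The isoenzymes of the same steps had a lower mean TE than the member of their step in 4 of 5 cases, ENO2 being the exception. HK1, the hexokinase of most tissues, had TE values of 0.301, 0.371 and 0.435, with no call against the median (log2 difference -0.07 ± 0.11; limma, adjusted p = 0.566). The liver and muscle phosphofructokinases PFKL and PFKM had mean TEs of 0.277 ± 0.0215 and 0.0993 ± 0.00301 (SD, n = 3), both called lower and below each replicate of PFKP. The brain aldolase ALDOC had 0.178 ± 0.0736 and was also called lower, with replicates from 0.125 to 0.262 that overlapped those of ALDOA. The neuronal enolase ENO2 had 0.822 ± 0.104 and was called higher, with replicates of 0.847, 0.911 and 0.708 that overlapped those of ENO1 at their lowest value.

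The occupancy of the enolases ENO2 and ENO3 sat mainly where their sequence is close to that of ENO1. Each codon was given the 28 nt of a footprint that starts 13 nt before it, and this window was compared with the member. In ENO2, 44 of 426 codons (10.3%) had a window with up to 3 mismatches to ENO1. These codons held 4391 of 4937 reads (88.9%, exact binomial interval 88.0% to 89.8%, counting error only). In the muscle enolase ENO3, for which no TE was analysed here, 35 codons (8.22%) held 3989 of 4170 reads (95.7%, interval 95.0% to 96.3%, counting error only). Over the other codons the mean occupancy was 0.149 instead of 1.21 in ENO2 and 0.122 instead of 2.51 in ENO3. The mRNAs of ENO2 and ENO3 were at 0.107 and 0.0409 of the median abundance, and that of ENO1 at 103.

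Where the windows of ENO1 and ENO2 were identical, at 7 codons, ENO2 had 1436 and ENO1 had 1474 estimated reads, so ENO2 had 97.4% of the ENO1 number. At windows with 1, 2 and 3 mismatches the share was 95.8%, 39.5% and 12.7%. At the 382 codons with over 3 mismatches it was 0.173%, or 546 against 315745 reads. ENO3 gave the same order, with 100% at identical windows (43 against 43 reads), 86.3% at 1 mismatch, 60.7% at 2, 12.8% at 3 and 0.0570% at over 3. The highest codon of both was codon 166, where ENO2 had 993, ENO3 1024 and ENO1 1022 reads, which after division by the mRNA level made occupancies of 105, 268 and 0.109. Its window is shown in the 3 genes, with the base that differs from ENO1 in capitals.
ENO1 codon 166, exon 7, chr1:8926495-8926522, minus strand: caagctggccatgcaggagttcatgatc
ENO2 codon 166, exon 7, chr12:7027142-7027169, plus strand: caagctggccatgcaggagttcatgatc
ENO3 codon 166, exon 7, chr17:4858408-4858435, plus strand: caagctggccatgcaggagttcatgatT

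**Figure D5:**
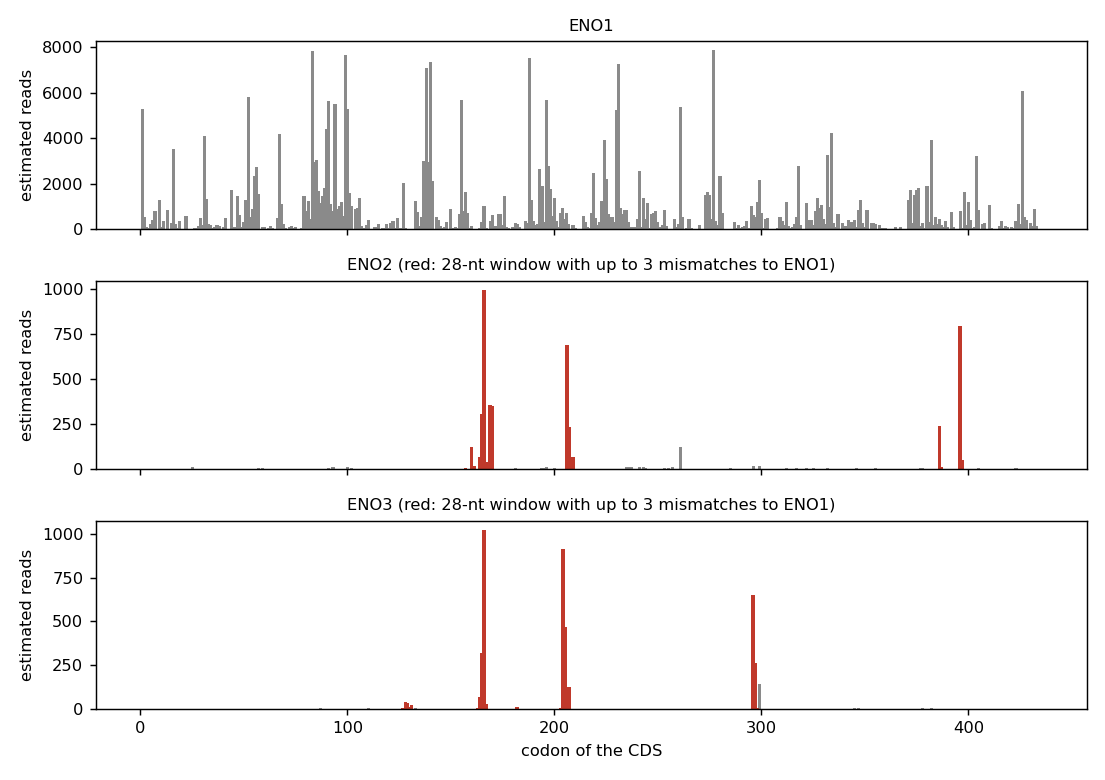
Estimated reads per codon along the CDS of ENO1, ENO2 and ENO3 (linear axes that differ between panels). Codons whose 28-nt window has up to 3 mismatches to ENO1 are red in the lower 2 panels: they hold 88.9% of the ENO2 reads and 95.7% of the ENO3 reads.

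The same comparison gave less for the other steps. In ALDOC, 31 codons with up to 3 mismatches to ALDOA held 43.0% of its reads, and its mean occupancy was 0.0387 over the other codons against 0.0610 over all. At the 5 identical windows ALDOC had 184 and ALDOA 187 reads, most of them at the highest ALDOC codon, 177, with 152 and 155 reads. HK1 and HK2 had 1 identical window, where the numbers were not alike, with 46 reads in HK1 and 15 in HK2. HK1, PFKL and PFKM had 7.94%, 13.5% and 1.89% of their reads in such windows, and the largest ratio of their mean occupancy over all codons to that over the other codons was 1.08, in PFKL. The testis lactate dehydrogenase LDHC had 68.1% of its reads in 32 windows close to LDHA, and its highest codon, 138, held 968 reads against 1007 at the same codon of LDHA. Over all 32 windows, however, LDHC had 1619 and LDHA 14635 reads, so LDHC had 11.1% of the LDHA number. The share was 7.05% at 2 mismatches and 14.9% at 3, unlike the falling order of the enolases. The sources used here do not say how reads that align to several transcripts were assigned, and whether shared reads set the TE of these isoenzymes was not tested.

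The genes that follow or flank the pathway were compared by the same fit. Of the 6 measured genes of lactate formation and of glucose and lactate transport, 5 were called higher and 1 lower (median log2 difference 0.53). LDHA, which regenerates NAD+ by reducing pyruvate, had a TE of 1.00 ± 0.0637 and LDHB, its partner subunit, 1.77 ± 0.0358 (SD, n = 3), both called higher, whereas LDHC had 0.212 ± 0.0293 and was called lower. Among 6 regulators of flux 3 were called higher and 3 lower, from TIGAR, a fructose bisphosphatase (TE 1.99), to the ADP-dependent glucokinase ADPGK (0.0919).

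In the pentose phosphate pathway, which draws on glucose 6-phosphate, 3 of 7 genes were called higher and 4 lower (median -0.70), from RPIA (TE 2.26) to RPE (0.153), the isomerase and the epimerase of ribulose 5-phosphate. Of the 21 genes of pyruvate dehydrogenase and the citric acid cycle, 12 were called higher, 6 lower and 3 neither (median 0.21), from SDHC, a membrane subunit of succinate dehydrogenase (TE 2.63), to OGDH, a subunit of oxoglutarate dehydrogenase (0.159). Of the gluconeogenesis genes G6PC3, a glucose 6-phosphatase, was the single one with a TE, at 0.218 and called lower. The median over all 8121 genes was -0.0018. The 9 glycolytic enzymes had the highest median of the 7 lists, 0.67, which is the value of PFKP, with no test of the lists made. Over all genes in both tables, those with 5 to 50% of the CDS elsewhere in the genome had a median of 0.53. The share of copied CDS was not compared between the lists. The genes outside the pathway whose TE was nearest to the median of the 9 were MARCH8, MFSD4B and RAE1, within 0.01 on the log2 scale, by the mean of the 3 replicates.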

How the data were processed

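The genes and lists were chosen with earlier results of these data known. Per the labels and the study's methods, RPFs and total RNA of the same number came from a single lysate. The submitters' processing notes name cutadapt 1.16, Bowtie 1.1.2, TopHat2 2.1.1, HTSeq 0.9.1 and hg19, whereas the methods name Hisat2 for total RNA. The deposited TE table holds a linear ratio for each replicate, whose formula the sources used here do not state. The deposited occupancy values are a signal that the authors normalized to library size and TPM and pooled over replicates. No per-sample column was left unused (0).

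The test of TE was limma (3.58.1, under R 4.3.3), applied to log2(TE + 0.01) against the median of all values, without a filter. On simulated data the test and the search for read steps recovered most of what was put in. In the simulation of the test most genes lay at the median, unlike the real genes, so it does not show how the test behaves where most genes differ. Read steps were found in 9454 of 9570 transcripts. Values above 60 smallest steps give estimated reads, and exact ones hold 0.487% (ENO1) to 78.5% (HK2) of a member's reads. Transcripts were matched to GENCODE 44 lifted to GRCh37 by symbol and CDS length. That of PKM was matched by adding 5 codons upstream, and that of ENO1 fits 2 sequences, of which the MANE transcript was used. Other steps used Python 3.11.15. Transcripts of like length and depth are the 1150 with 250 to 918 codons, the range of the 9 enzymes, and at least 6247 CDS reads. This read limit is the lowest count of the 9, whose highest was 337081, and no upper limit was set. Named were all members, their measured isoenzymes, LDHA and LDHB, the highest and lowest TE of each other list, each member's highest codon and the 3 genes nearest to the members' median. The replicate block was an alternative fit, since the ratio is already taken within each pair.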

Additional observations from a re-analysis of the deposited data

How the results depend on the processing

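The number of enzymes called higher (8) and lower (1) was the same with a pseudocount of 0.1 or 0.001, with genes of a mean TE of at least 0.05, with the trend and robust options of limma, and without replicate 1, 2 or 3. With a replicate block, in which each replicate's own median was removed, it was again 8 and 1, and 3639 genes were called higher and 3626 lower in all. Leaving out a replicate gave 3528 to 3552 genes higher and 3470 to 3539 lower, against 3631 and 3618. An alternative chosen after seeing the data kept only genes with under 5% of the CDS elsewhere in the genome. It tested fewer genes, 5251, of which 2337 were called higher and 2322 lower. Of the enzymes it left only PFKP, so 1 was called higher and 0 lower. Of those genes of the other lists that it kept, 14 were called higher, against 24 when all their genes were tested. With means over 3 neighbouring codons, only 1 enzyme, PGAM1, had over 5% of its CDS sum at the highest position instead of 4. By medians over the codons of each window, the log2 ratio of first to last window of ENO1 was -0.11 instead of 0.32, and the cause was not tested. Of the alternatives for the counts above and the other counts over all genes or enzymes, 59 kept the result and 6 moved it, and of those for single genes, lists and windows 274 kept it, 10 moved it and 1 reversed it. The occupancy has no replicate error, and positions in HK2 and PFKP rest on few reads per codon.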

Other observations

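ENO1-like sequence also carried signal outside the enolase genes. These genes were chosen after their values were seen. In the 3′UTR of EDARADD, 357 of 691 in-frame codons had a 28-nt window with up to 3 mismatches to the ENO1 CDS, and they held 9377 of 9920 estimated 3′UTR reads (94.5%), while the EDARADD CDS itself held 304. In the 3′UTR of TMEM237, 18 of 1352 codons (1.33%) had such a window and held 1626 of 1627 reads. The 9 enzymes themselves had at most 10 in-frame 3′UTR reads each.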
